A study of Homo sapiens with 8 samples.

Results

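Tetraspanins and the TM4SF proteins are small proteins that cross the cell membrane several times and hold other membrane proteins in place. Their genes were picked by symbol alone: every TSPAN gene with a number, every TM4SF gene with a number, and CD9, CD37, CD53, CD63, CD81, CD82 and CD151. This gave 35 of the 28395 genes in the table, namely 7 named as CD antigens, 6 TM4SF genes, 6 genes of the TspanC8 group and 16 other TSPAN genes. No measured value entered this rule, but it was set with earlier results of these data known.

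The libraries came from the established kidney cancer line A-498 of human origin, in a series on the loss of annexin A4 (ANXA4), a protein that binds membrane lipids when calcium is present. Each of 4 derived lines gave 2 libraries of polyadenylated RNA: control lines 1 and 2, of wild type control genotype, carried non-targeting sgRNA-1 and sgRNA-2, and the lines labelled ANXA4 KO-1 and KO-2 carried ANXA4 sgRNA-1 and sgRNA-2. Each guide thus stood for a single line, and the labels did not say whether a line grew from 1 cell or from a pool. Cells were seeded at equal numbers and grown for 1 day without reaching confluence.

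Tetraspanins gather integrins, immunoglobulin-type proteins and proteases into patches of the membrane, and several of them are sorted into extracellular vesicles. The TspanC8 group brings the protease ADAM10 out of the endoplasmic reticulum and steers which substrates it cuts. TM4SF proteins share the layout of the tetraspanins but form a separate family, the L6 family, whose founding member TM4SF1 is abundant on many carcinoma cells and on endothelium. Where single tetraspanins act in kidney epithelium, as in the basement membrane attachment that CD151 gives to podocytes, they do so through integrins that bind laminin.

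The deposited values are normalized read counts, that is, reads divided by 1 size factor per library, and all values below are in that unit unless a log2 difference is named. Depth lay between 15784890 and 22631588 reads per library, and 1 read was worth 0.783 to 1.21 normalized read counts. The members together held 0.245% to 0.361% of the reads. ANXA4 checked the labels: it had 2821 to 6773 in the 4 control libraries, 235.6 and 234.4 in the line labelled KO-1, and 3433 and 4142 in the line labelled KO-2. The line labelled KO-2 therefore lay inside the control range for the RNA of the targeted gene, and KO is used below as a label only. PAX8, a kidney lineage factor, had 2987 to 4476, PAX2 had 232 to 412, and LRP2, which marks proximal tubule, had at most 1 read in a library.

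Members differed widely in level (the plot of values by library shows the 25 that passed the filter). A gene was tested where at least 2 libraries reached a value of 10, which held for 25 members: 5 CD-named, 2 TM4SF, all 6 TspanC8 and 12 other TSPAN genes. Per kilobase of annotated exon, CD63 was highest in control libraries at 5257 ± 1283 (SD, n = 4), followed by TSPAN13 at 3051 ± 825 and CD151 at 2103 ± 294. CD82 at 1373 ± 272 and TM4SF1 at 1309 ± 363 came next and were closer to each other than their spread. CD81 followed at 748 ± 77.5 and TSPAN4 at 472 ± 43.9. TSPAN9, TSPAN15, TSPAN17 and TSPAN3 lay within their spread of one another at 208 to 241 per kilobase. TM4SF18 was far down this order, at 34.5 ± 25.6, beside TSPAN10 at 35.3 ± 5.06. At the bottom of the tested members stood TSPAN1 at 9.38, TSPAN8 at 2.81, CD37 at 2.62 and TSPAN11 at 0.788 per kilobase. These levels are approximate, since the exon lengths join all transcripts of a gene and the annotation used for counting is not given in the sources used here.

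**Figure D1:**
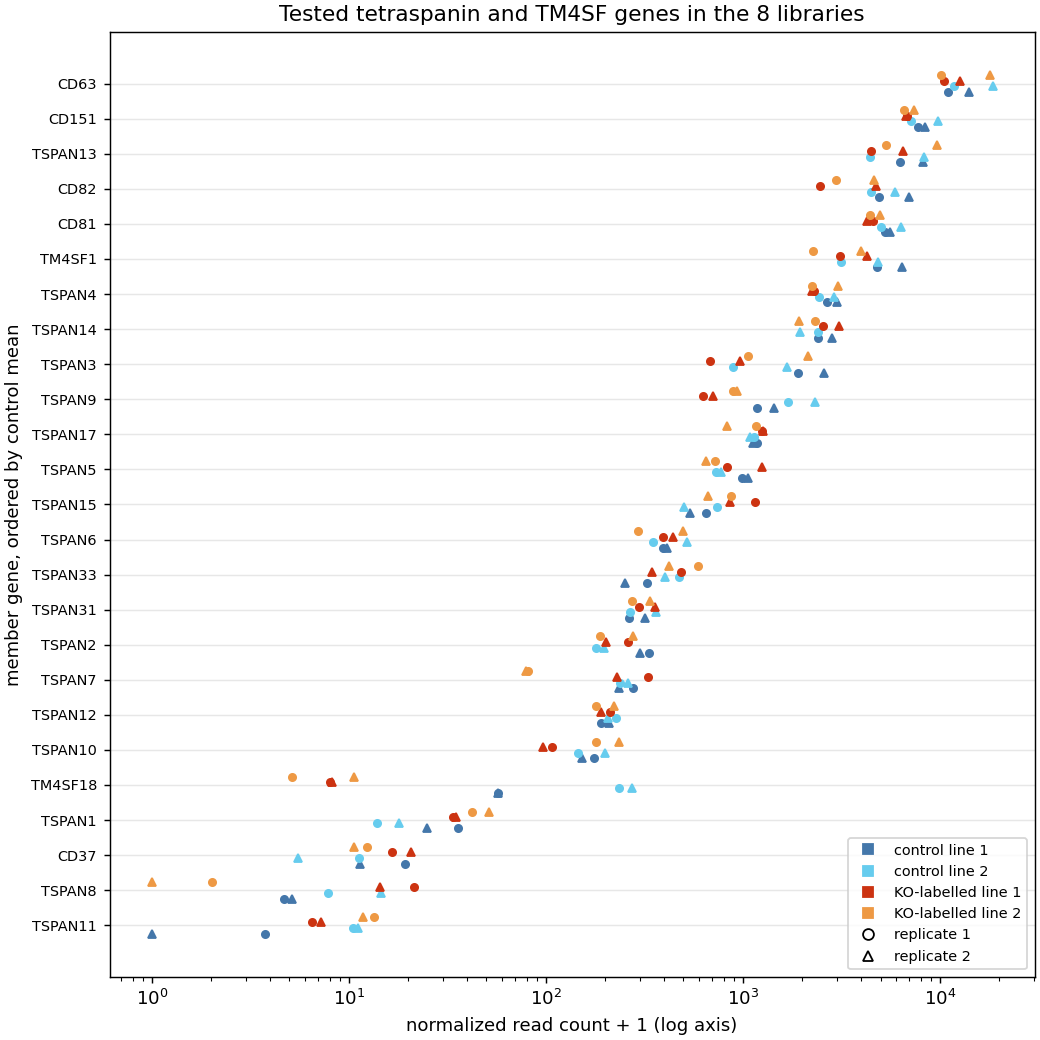
Normalized read count plus 1 (horizontal, log axis) of the 25 tested members (vertical, ordered by control mean) in the 8 libraries. Colours mark the 4 lines and shapes the replicate numbers. Before the 1 is added, TM4SF18 has values below 10 in all 4 KO-labelled libraries and above 56 in all 4 control libraries.

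The other 10 members did not pass the filter. CD9, a tetraspanin usually carried on epithelial cells and vesicles, had 0 reads in all 8 libraries, which allows a level of up to 2.35 to 3.62 normalized read counts, the worth of 3 reads. A value of 0 in this table need not mean that the RNA was absent. RPS18, a ribosomal protein gene that every cell uses, had 4.16 to 14.7 only, and FLOT1, a widely expressed membrane protein gene, had at most 4.6. CD53, restricted to blood cells, reached at most 1.03. The other untested members were TM4SF5 with at most 12.1, TSPAN32 with at most 8.27, TM4SF4 with at most 4.14, TSPAN19 with at most 3.62, TM4SF20 with at most 2.76, TSPAN18 with at most 2.08, TM4SF19 with at most 2.07 and TSPAN16 with at most 0.783.

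TM4SF18 showed the largest difference of the family between the arms. TM4SF18 (Entrez gene 116441), a member of the L6 family, is annotated by RefSeq on the minus strand of chromosome 3 at 149318498 to 149333636 (GRCh38.p14). Beside it lies TM4SF1 (Entrez gene 4071, minus strand, 149369022 to 149377649), and next in the family comes TM4SF4 (Entrez gene 7104, plus strand, 149474697 to 149503394). Stretches before the annotated transcription start of the first 2 are shown here because 1 of these neighbours fell between arms and the other did not pass the test. Each stretch is 30 bases of the RefSeq promoter table, read 5′ to 3′ on the gene's strand, with capitals on the letters CATTCC or their reverse complement, the core to which TEAD factors bind.
TM4SF18, chr3:149333665-149333694, minus strand: tgaaaaacaccgCATTCCtttggcacagga
TM4SF1 first match, chr3:149377754-149377783, minus strand: tgaagggcgggaCATTCCccctgcctcttc
TM4SF1 second match, chr3:149377650-149377679, minus strand: gtatttaagaggtagcaGGAATGggctgag

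The match in TM4SF18 began 46 bases before the annotated start, and those in TM4SF1 began 122 and 13 bases before it. TM4SF4 had no match in its 250 bases. Of all 35116 windows of 250 bases before a start, 11.9% held these letters on either strand, against 8 of the 47 windows of the 27 members found in the table (17.0%). The other motifs searched were the AP-1 letters TGANTCA, the letters CCAAT, the TATA letters TATAAA and the hypoxia core ACGTG. They lay in 6.57%, 32.0%, 10.7% and 18.5% of all windows, in that order. Among the member windows the shares were lower, at 6.38%, 23.4%, 2.13% and 17.0%. None of these other motifs lay in the 250 bases before TM4SF18, and a CCAAT match in the TM4SF1 window was outside the printed stretches. A match is a string of letters and was not measured as a bound site.

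TM4SF18 had 56.1 and 56.2 in replicates 1 and 2 of control line 1, then 233.2 and 273 in those of control line 2. It had 7.05 and 7.26 in the line labelled KO-1, and 4.14 and 9.66 in the line labelled KO-2. The arms did not overlap: the lowest control library held 54 reads and the highest KO-labelled library held 9. The mean was 155 ± 115 (SD, n = 4) in control and 7.03 ± 2.26 (SD, n = 4) in KO-labelled libraries, a ratio of 22.0. In bulk RNA, fewer cells that express a gene and less RNA per cell cannot be told apart.

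On the log2(value + 1) scale, which understates changes of low values, TM4SF18 fell by 3.95 between KO and control (SE 0.58, limma adjusted p = 0.0238, lower in 4 of 4 libraries). A two-sided exact permutation test over libraries gave p = 0.0286, the smallest that 70 arrangements allow. That test treats the 8 libraries as independent, although each line gave 2 of them. TM4SF18 was picked for it with its fall already known. Since the arms do not overlap, this p-value was settled beforehand and adds no support of its own. Among all 14040 tested genes, 0.235% were called in this comparison, 0.128% as higher and 0.107% as lower, and of the 25 members TM4SF18 alone was called, while 4 had an unadjusted p under 0.05. A call means a limma p under 0.05 after Benjamini-Hochberg adjustment over all tested genes. The call was lost without control line 2 replicate 1 (limma adjusted p = 0.0579) and without replicate 1 of the line labelled KO-2 (0.0925). Over all alternatives the adjusted p ran from 7.36e-12 with DESeq2 to 0.511 when each line was reduced to its mean. That DESeq2 fit took libraries of a line as independent.

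Each KO-labelled line was also compared with the control lines. TM4SF18 fell by 3.88 in the line labelled KO-1 (SE 0.33, limma adjusted p = 0.000664) and fell by 4.02 in the line labelled KO-2 (SE 0.33, limma adjusted p = 0.000393). These comparisons use the same control libraries. Both calls were kept whichever of the 8 libraries was left out. Against single control lines, limma gave differences of -2.81 and -4.96 for the line labelled KO-1 and of -2.95 and -5.10 for the line labelled KO-2, with control line 1 named first. Between the KO-labelled lines the difference was -0.14 (SE 0.38, limma adjusted p = 0.85).

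Control lines 1 and 2 were themselves unlike in TM4SF18. Control line 2 was higher than control line 1 by 2.15 (SE 0.38, limma adjusted p = 0.0319), and TM4SF18 was the only member called there, where 2.13% of all genes were called, 1.05% as higher and 1.08% as lower. That call was lost, with a limma adjusted p of 0.0635 to 0.222, when any library other than the 2 of the line labelled KO-2 was left out, and no member remained called then. With the replicate number as a block, 12.5% of all genes and 7 members were called between the control lines. Beside TM4SF18, these were TSPAN9, TSPAN11 and TSPAN33 as higher and TSPAN2, TSPAN3 and TM4SF1 as lower in control line 2.

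Endothelium is a tissue where TM4SF18 and TM4SF1 are both expressed, so its markers were read in the same libraries. The 7 endothelial markers summed to 30.1 to 78 in control libraries and to 27.9 to 57.1 in KO-labelled ones. CDH5 had 0 reads in every library, KDR and EMCN at most 1, and TEK, at 21.7 to 67.6, made up most of the sum. The sums of the arms overlapped, and 4 of the 7 markers had at most 3 reads in any library.

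**Figure D2:**
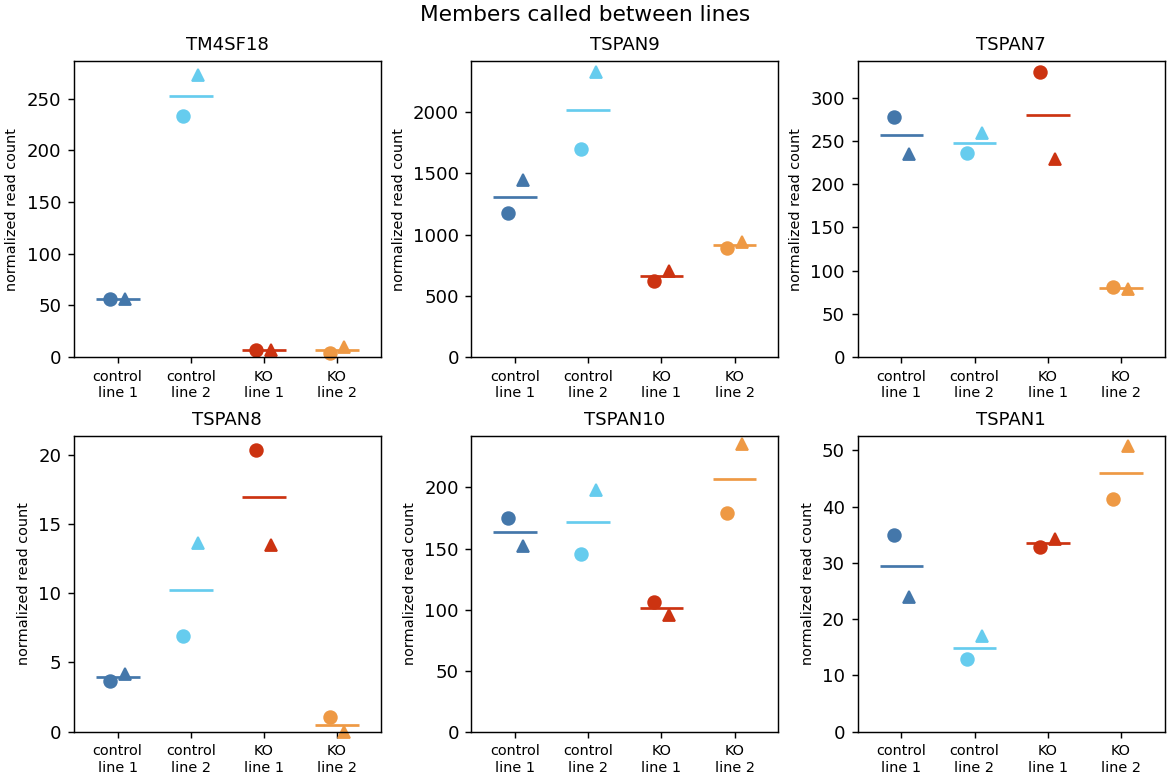
Normalized read count (vertical, linear from 0) of the 6 members called between the control lines, between the KO-labelled lines, or in a KO-labelled line against both control lines, by line. Circles are replicate 1, triangles replicate 2, and bars are line means. TM4SF18 and TSPAN9 were lower in all 4 KO-labelled libraries than in any control library, TSPAN7 and TSPAN8 were lowest in the line labelled KO-2, and TSPAN10 was lowest in the line labelled KO-1.

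TM4SF1, the L6 antigen and the nearest member on the chromosome, showed a smaller difference. It had 4797 and 6412 in control line 1, 3152 and 4849 in control line 2, 3126 and 4262 in the line labelled KO-1, and 2273 and 3992 in the line labelled KO-2. The arms overlapped, and replicate 2 was above replicate 1 in every line. Between KO and control the log2 difference was -0.49 (SE 0.31, limma adjusted p = 0.604).

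With the replicate number as a block, TM4SF1 was called lower in both KO-labelled lines. The line labelled KO-1 had a log2 difference of -0.35, with a limma adjusted p of 0.0268 with the block, 0.456 without it and 0.0268 to 0.906 over the alternatives. The line labelled KO-2 had -0.63, with 0.000831 with the block, 0.17 without it and 0.000831 to 0.987 over the alternatives. When the values were centred on the median of the surrounding genes, the difference in the line labelled KO-2 was 0.00917, so its direction depended on that scaling. TM4SF4, at 0 to 4.14, was too low to compare.

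The tested genes around TM4SF18 were examined because a stretch of chromosome can differ between lines. Of its 10 nearest tested genes on each side, none was called between KO and control by limma or edgeR. An unadjusted p under 0.05 was reached by 6, and DESeq2 called 5. No share of all genes is given for DESeq2, so its counts have no reference. Between KO and control 18 of 20 had a log2 difference below 0, and their median was -0.32. In the line labelled KO-1 their median was -0.11, SLC9A9 alone was called, as higher, where 7.01% of all genes were called. With the replicate block 7 were called there, 5 as lower, beside 24.4% of all genes, and DESeq2 called 2. In the line labelled KO-2 their median was -0.63, with 11 called lower and 1 higher, where 6.67% of all genes were called lower and 4.54% higher. With the block 15 were called lower and 1 higher, beside 27.4% of all genes called. Between the control lines their median was -0.34 with no call by limma or edgeR (8 with an unadjusted p under 0.05, 2 called by DESeq2). With the block 7 were called between the control lines, 6 of them lower in control line 2, beside 12.5% of all genes. TM4SF18 was higher there by 2.15.

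Single neighbours are named here after their values were seen. CP, the ceruloplasmin gene on the other side, had a log2 difference of -1.12 in the line labelled KO-1 (limma adjusted p = 0.115) and fell by 1.44 in the line labelled KO-2 (0.0441). AGTR1, an angiotensin receptor gene, had -1.55 (0.0854) and fell by 4.16 (0.0019). WWTR1, the gene of the coactivator TAZ, had -0.11 (0.677) and -0.51 (0.0542). With the block CP and AGTR1 were called lower in both KO-labelled lines, and WWTR1 in the line labelled KO-2. Centred on the surrounding genes, TM4SF18 stayed lower by limma, at -3.75 in the line labelled KO-1 and -3.39 in the line labelled KO-2. RefSeq annotates an antisense gene across TM4SF18, and strand use in counting is not given in the sources used here, so reads of the pair cannot be told apart.

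**Figure D3:**
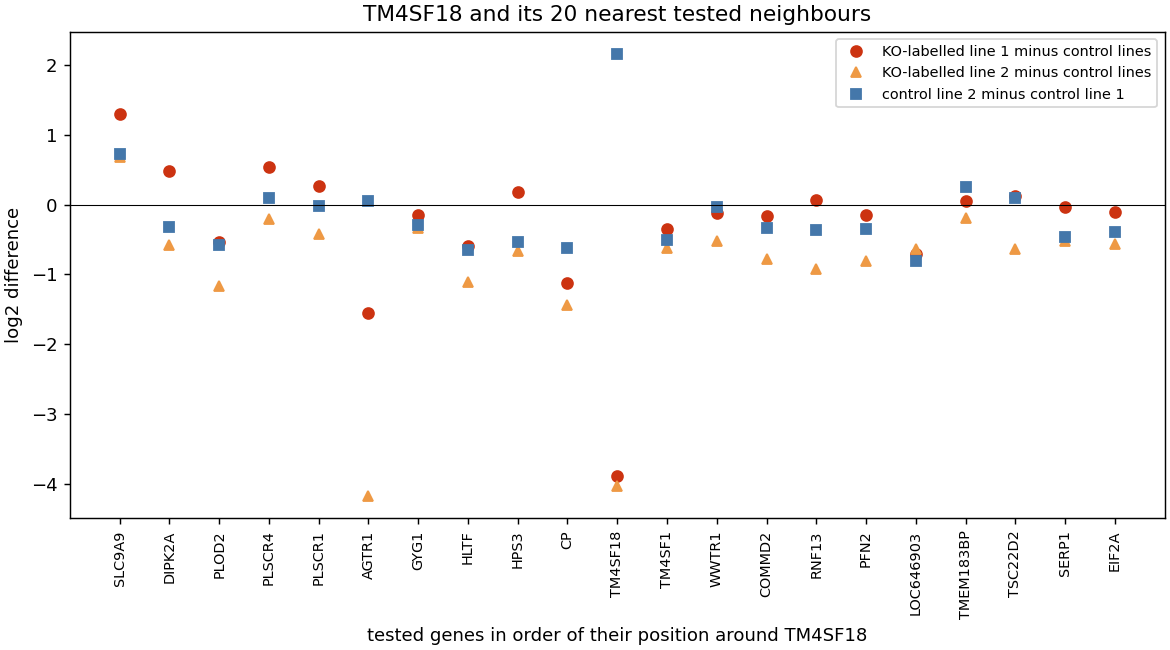
Log2 difference (vertical) of TM4SF18 and the 20 nearest tested genes, in their order along chromosome 3 (horizontal), for the KO-labelled lines against the control lines and for the control lines against each other. TM4SF18 lies at -3.88 and -4.02 in the KO-labelled lines and at 2.15 between control lines. The triangles of the line labelled KO-2 lie below 0 at 19 of the 20 neighbours.

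Among all members, the line labelled KO-1 had 2 calls in limma, TM4SF18 and TSPAN9, both lower, where 7.01% of all genes were called, 3.82% as higher and 3.18% as lower. The line labelled KO-2 had 5 calls, TSPAN1 as higher and TM4SF18, TSPAN9, TSPAN7 and TSPAN8 as lower, where 11.2% of all genes were called, 4.54% as higher and 6.67% as lower. The median log2 difference of the 25 members was -0.05 and -0.11 in these lines, against 0.00 and 0.01 for all genes. With the replicate number as a block, 8 members were called in the line labelled KO-1 beside 24.4% of all genes, and 9 in the line labelled KO-2 beside 27.4%. The count for the line labelled KO-1 was 5 without control line 2 replicate 1, 4 without replicate 1 of the line labelled KO-2 and 1 without its own replicate 1. For the line labelled KO-2 it was 3 without either replicate of control line 1, without replicate 1 of the line labelled KO-1, or without either of its own replicates.

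**Figure D4:**
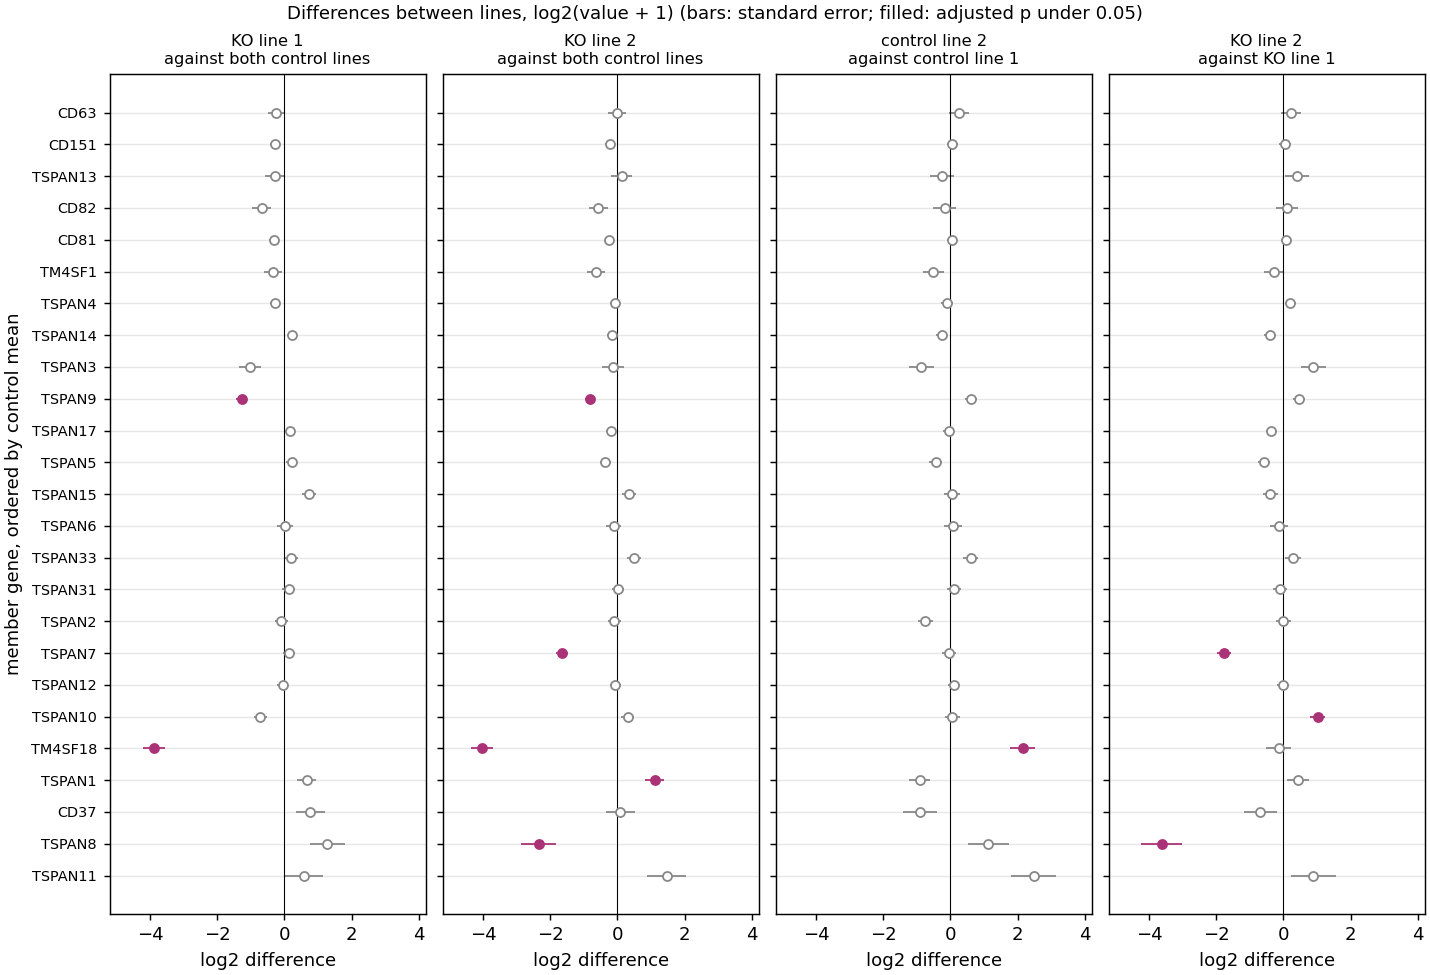
Log2 difference (horizontal) of the 25 tested members (vertical) in 4 comparisons between lines, with bars of 1 standard error and filled points for adjusted p under 0.05. TM4SF18 and TSPAN9 are filled in both left panels, and TSPAN7, TSPAN8 and TSPAN10 are filled where the KO-labelled lines are compared.

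TSPAN9, a tetraspanin known from platelets and other cells, was lower in both KO-labelled lines. TSPAN9 (Entrez gene 10867, chromosome 12, 3077379 to 3286559) had 1174 and 1447 in control line 1, then 1699 and 2332 in control line 2. It had 625.5 and 706.4 in the line labelled KO-1 and 894 and 938 in the line labelled KO-2. All KO-labelled libraries lay below all control libraries, with means of 791 ± 149 and 1663 ± 495 (SD, n = 4), a ratio of 2.10.

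It fell by 1.28 in the line labelled KO-1 (SE 0.16, limma adjusted p = 0.00288) and fell by 0.81 in the line labelled KO-2 (SE 0.16, limma adjusted p = 0.0134). The first call was lost without that line's replicate 1 (0.0566), and the second likewise without that line's replicate 1 (0.0608). With arms compared over correlated lines, the log2 difference was -1.04 (SE 0.24, limma adjusted p = 0.117). Fits of the arms that took libraries of a line as independent gave an adjusted p of 0.0449 with edgeR and 0.000306 with DESeq2. The range over all alternatives was 0.000306 to 0.6. RefSeq places other genes inside its introns, and their reads were not separated by strand as far as the sources used here say.

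TSPAN9, TM4SF18 and CD81 were the 3 tested members whose arms did not overlap, each with KO lower. Of all tested genes, 5.51% had KO-labelled libraries below and 5.11% above all control libraries. With libraries scaled to equal totals the count of members was 4. The shares above do not apply to that scaling, whose share of all genes is not given here, so that count has no reference.

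TSPAN7 and TSPAN8 had their lowest values in the line labelled KO-2. TSPAN7 (Entrez gene 7102, chromosome X, 38561542 to 38688918), a tetraspanin of neurons whose mutation causes intellectual disability, had 278 and 235 in control line 1, then 236 and 259 in control line 2. The values were 330 and 229 in the line labelled KO-1, and 80.7 and 78.5 in the line labelled KO-2. Only the last 2 libraries lay apart from the rest. It fell by 1.65 in the line labelled KO-2 (SE 0.18, limma adjusted p = 0.00183), and its log2 difference was 0.13 in the line labelled KO-1 (SE 0.18, limma adjusted p = 0.714). Tested directly, the line labelled KO-2 was lower than the line labelled KO-1 by 1.78 on the log2 scale (SE 0.21, limma adjusted p = 0.00401). Both calls were kept whichever library was left out.

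TSPAN8 (Entrez gene 7103, chromosome 12, 71125096 to 71157999), known from carcinomas of the digestive tract, was near the limit of detection. It had 3.68 and 4.16 in control line 1, 6.88 and 13.6 in control line 2, 20.4 and 13.5 in the line labelled KO-1, and 1.03 and 0 in the line labelled KO-2. The last pair came from 1 and 0 reads, so this line was at the floor of 3 reads per library. Against that floor it was at least 5.03-fold lower than the line labelled KO-1 and at least 2.1-fold lower than the mean of control. The bound was 3.05-fold against control line 2 but 1.17-fold against control line 1, where TSPAN8 itself had 4 reads in each library.

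The fitted log2 differences of TSPAN8 depend on the added 1 and are no bound: -2.35 for the line labelled KO-2 against control (SE 0.53, limma adjusted p = 0.024) and -3.62 between the KO-labelled lines (SE 0.61, limma adjusted p = 0.014). The first call was lost without control line 1 replicate 1 or 2, control line 2 replicate 2, replicate 1 of the line labelled KO-1 or replicate 2 of the line labelled KO-2 (limma adjusted p = 0.0506 to 0.108). The second was lost without either replicate of the line labelled KO-1 or replicate 2 of the line labelled KO-2 (0.0538 to 0.106). Neither edgeR nor DESeq2 made the first call, and edgeR but not DESeq2 made the second.

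TSPAN1 was called higher in the line labelled KO-2, and TSPAN10 differed between the KO-labelled lines. TSPAN1 (Entrez gene 10103, chromosome 1, 46175087 to 46196489), found in many epithelia, had 34.9 and 23.9 in control line 1, 12.9 and 17 in control line 2, 32.9 and 34.2 in the line labelled KO-1 and 41.4 and 50.7 in the line labelled KO-2. Control line 2 was the lowest line and the line labelled KO-2 the highest, and the arms overlapped. It rose by 1.11 in the line labelled KO-2 (SE 0.28, limma adjusted p = 0.0388). This call was kept without control line 2 replicate 2 and was lost without any of the 7 other libraries (limma adjusted p = 0.0598 to 0.164). With all libraries, edgeR also called TSPAN1 there and DESeq2 did not. RefSeq has TSPAN1 overlap POMGNT1, so the reads of TSPAN1 may be shared.

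TSPAN10 (Entrez gene 83882, chromosome 17, 81637196 to 81648755), a TspanC8 member also called oculospanin, had 175 and 152 in control line 1, then 145 and 198 in control line 2. It had 106.5 and 95.4 in the line labelled KO-1 and 179 and 235 in the line labelled KO-2. The line labelled KO-1 lay below all control libraries. In the line labelled KO-2, replicate 1 lay inside the control range and replicate 2 above it. Between the KO-labelled lines, TSPAN10 was higher in the line labelled KO-2 by 1.02 (SE 0.23, limma adjusted p = 0.036). That call was lost without either replicate of control line 1, either of the line labelled KO-1 or replicate 2 of the line labelled KO-2 (0.0668 to 0.214).

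In that comparison of the KO-labelled lines, 6.94% of all genes were called, 2.41% as higher and 4.53% as lower, and 3 of the 25 members, TSPAN10 as higher and TSPAN7 and TSPAN8 as lower. A single member remained called without replicate 1 or 2 of the line labelled KO-1 or replicate 2 of the line labelled KO-2. With the block, 24.5% of all genes and 8 members were called. Beside those 3, TSPAN9, TSPAN3 and TSPAN13 were higher and TSPAN15 and TSPAN5 lower in the line labelled KO-2.

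The other TspanC8 genes, partners of ADAM10, were not called in either KO-labelled line by limma without the block or by edgeR. An unadjusted limma p under 0.05 was reached by 2 of the 6 TspanC8 genes in the line labelled KO-1 and by 1 in the line labelled KO-2. TSPAN15, which directs ADAM10 to N-cadherin, had 647 and 541 in control line 1, 742 and 503 in control line 2, 1146 and 863 in the line labelled KO-1 and 873 and 661.5 in the line labelled KO-2. The arms overlapped through control line 2 replicate 1, and replicate 1 was above replicate 2 in all 4 lines. With the replicate block TSPAN15 was called higher in both KO-labelled lines, and DESeq2 called it in the line labelled KO-1 (adjusted p = 0.0145). The log2 differences were 0.73 (limma adjusted p = 0.000448 with the block, 0.0674 without, 0.000448 to 0.407 over the alternatives) and 0.34 (0.0293 with the block, 0.337 without, 0.0293 to 0.76 over the alternatives).

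TSPAN33, also TspanC8, had 326 and 253 in control line 1, 471.5 and 403 in control line 2, 482 and 346.5 in the line labelled KO-1 and 589.5 and 422.5 in the line labelled KO-2. It was lowest in control line 1 and the arms overlapped. Its log2 difference in the line labelled KO-2 was 0.49 (limma adjusted p = 0.00713 with the block, 0.159 without, 0.00713 to 0.528 over the alternatives). TSPAN5, which favours Notch cleavage, TSPAN14 and TSPAN17 had log2 differences between KO and control of -0.07, 0.03 and -0.03, and none of them was called in either KO-labelled line with or without the block. ADAM10 itself had a log2 difference of -0.05 between KO and control (limma adjusted p = 0.958).

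CD-named members, of which 5 were tested, included 4 of the 6 highest levels per kilobase, and none was called in any of the 5 comparisons by limma without the block, by edgeR or by DESeq2. An unadjusted limma p under 0.05 was reached by 2 of them in the line labelled KO-1 and by none in the 4 other comparisons. CD63, the tetraspanin of late endosomes and vesicles, had 10982 and 14074 in control line 1, 11802 and 18515 in control line 2, 10440.2 and 12610.5 in the line labelled KO-1 and 10141.5 and 17973 in the line labelled KO-2. Its log2 difference between KO and control was -0.12 (SE 0.28, limma adjusted p = 0.932), smaller than its difference between replicate numbers. CD151, the partner of laminin-binding integrins, had 7751 and 8393 in control line 1, 7139 and 9839.8 in control line 2, 6774 and 6757 in the line labelled KO-1 and 6599 and 7422 in the line labelled KO-2. A single KO-labelled library exceeded the lowest control library, and the log2 difference was -0.26 (SE 0.16, limma adjusted p = 0.605).

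CD81, a broadly expressed tetraspanin that is sorted into vesicles, had 5239.8 and 5565 in control line 1, 5007 and 6322 in control line 2, 4601 and 4265 in the line labelled KO-1 and 4409 and 4957 in the line labelled KO-2. The arms did not overlap, by a margin of 5007 against 4957. The log2 difference was -0.28 (SE 0.14, limma adjusted p = 0.512). For the line labelled KO-1 it was -0.32, with a limma adjusted p of 0.0441 with the block, 0.181 without it and 0.0441 to 0.552 over the alternatives.

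CD82, known as a suppressor of metastasis, had 4893 and 6934 in control line 1, 4482 and 5956 in control line 2, 2478 and 4731 in the line labelled KO-1 and 2976 and 4629 in the line labelled KO-2. Within each replicate number the KO-labelled libraries lay below the control libraries, while over all libraries the arms overlapped. The log2 difference between KO and control was -0.62 (SE 0.30, limma adjusted p = 0.479). With the block, CD82 was called lower in the line labelled KO-1 at -0.68 (limma adjusted p = 0.0011 with the block, 0.191 without, 0.0011 to 0.797 over the alternatives). In the line labelled KO-2 it was called lower at -0.56 (0.00277 with the block, 0.252 without, 0.00277 to 0.685 over the alternatives).

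CD37, a tetraspanin of B cells, had 18.4 and 10.4 in control line 1, 10.3 and 4.53 in control line 2, 15.7 and 19.7 in the line labelled KO-1 and 11.4 and 9.66 in the line labelled KO-2. The arms overlapped, with a log2 difference of 0.43 (SE 0.52, limma adjusted p = 0.833). Leukocyte markers summed to 35.4 to 37.7 in control and 73.6 to 96.2 in KO-labelled libraries. ITGAM, at 21.8 to 29.4 and 57.9 to 83.8, was the only one of the 8 that passed the filter. PTPRC, the pan-leukocyte marker, had at most 1 read and CD3E 0 reads in every library, and the part of the ITGAM difference in any member's result was not tested.

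The remaining TSPAN genes were not called by limma in either KO-labelled line against both control lines without the block. Against control line 1 alone, TSPAN3 was called lower in the line labelled KO-1 (log2 difference -1.45, limma adjusted p = 0.0495) and TSPAN11 higher in the line labelled KO-2 (2.70, 0.0324), the latter from at most 3 reads per library in control line 1. TSPAN3 had 1912 and 2594 in control line 1, 892 and 1681 in control line 2, 684 and 971 in the line labelled KO-1 and 1061 and 2154 in the line labelled KO-2. Control line 1 was the highest line and the line labelled KO-1 the lowest. Its log2 difference in the line labelled KO-1 was -1.02 (SE 0.33, limma adjusted p = 0.102), and with the block and with DESeq2 it was called. TSPAN10 was also called lower in that line with the block and with DESeq2. TSPAN13 ranged from 4411 to 9644, TSPAN4 from 2239.5 to 3055, TSPAN6 from 294 to 522, TSPAN31 from 262 to 360.3, TSPAN2 from 179.8 to 334 and TSPAN12, a coreceptor of Norrin signalling, from 178 to 225. None of these 6, nor TSPAN11 at 0 to 12.4, was called in either KO-labelled line against both control lines with or without the block. TSPAN31 overlaps CDK4 in RefSeq, so its count is uncertain.

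Replicate numbers carried a difference of their own in this family, a comparison chosen after the data were seen. In the fit with the block, replicate 2 differed from replicate 1 in 17.6% of all genes, 8.97% as higher and 8.62% as lower. Of the 25 members 9 were called, 7 as higher and 2 as lower in replicate 2. TSPAN3 was higher by 0.72 (SE 0.10, limma adjusted p = 0.00151), TSPAN13 by 0.67 (0.00151), CD82 by 0.62 (0.00165), TM4SF1 by 0.57 (0.00164) and CD63 by 0.53 (0.00584). TSPAN6 was higher by 0.39 (0.0418) and TSPAN31 by 0.32 (0.0388).

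TSPAN15 was lower in replicate 2 by 0.41 on the log2 scale (limma adjusted p = 0.00858) and TSPAN33 fell by 0.39 (0.0165). Each of the 9 moved the same way in all 4 lines. Both that were lower belong to TspanC8, whose 4 other members were not called here. The labels name a replicate number without saying whether it marks a day, a culture or a sequencing run.

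**Figure D5:**
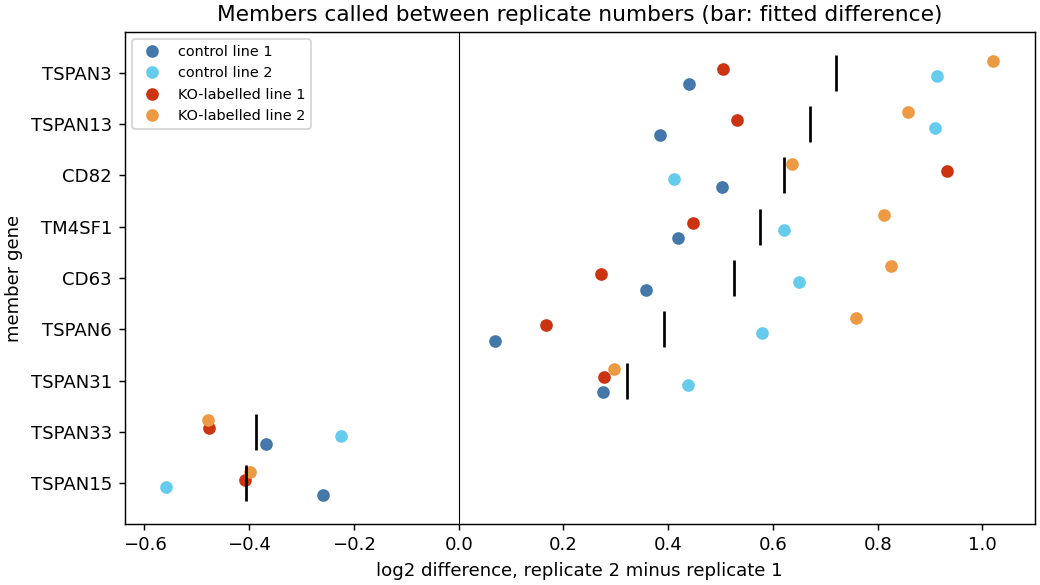
Log2 difference between replicate 2 and replicate 1 (horizontal) within each of the 4 lines (points) for the 9 members called between replicate numbers (vertical), with a bar at the fitted difference. For 7 members all 4 points lie above 0, and for TSPAN15 and TSPAN33 all 4 lie below 0.

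Genes that work with tetraspanins were read as 3 lists. For edgeR and DESeq2 no share of all genes is given, so their counts have no reference. Of 21 tested membrane partners, none was called between KO and control by limma, 4 had an unadjusted p under 0.05, edgeR called 1 and DESeq2 called 2. In the line labelled KO-1, 2 were called, where 7.01% of all genes were: CLDN1, a tight junction protein, was higher by 1.54 and MET, the receptor of hepatocyte growth factor, by 0.66. With the replicate block 9 partners were called there, 5 as higher and 4 as lower, beside 24.4% of all genes. In the other KO-labelled line, CLDN1 was higher by 0.81, and the integrin chains ITGA6, ITGA4 and ITGA5 fell, with -1.05, -1.46 and -0.94, where 11.2% of all genes were called. With the block 1 was called higher and 12 lower, beside 27.4% of all genes. Between the control lines 2 partners were called, both lower in control line 2, where 2.13% of all genes were called. These were ITGA5 at -1.02 (limma adjusted p = 0.0499) and MMP14 at -1.09 (0.0411). With the block 6 partners were called there, 2 higher and 4 lower, beside 12.5% of all genes. The median log2 difference of the list was 0.14 in the line labelled KO-1 and -0.40 in the line labelled KO-2, against 0.00 and 0.01 for all genes. ITGA6, a laminin-binding chain that pairs with CD151, had 1202 and 1149 in control line 1, 1439 and 1541 in control line 2, 1638 and 2340.2 in the line labelled KO-1 and 632 and 645 in the line labelled KO-2. For ITGA6 the line labelled KO-2 lay below all control libraries and the line labelled KO-1 above them. The rise in the line labelled KO-1 was called with the block, by edgeR and by DESeq2, and not by limma without the block.

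Of 15 tested ADAM10 substrates, none was called between KO and control by limma without the block, where 3 had an unadjusted p under 0.05. With the block PRNP was called lower, edgeR called 1 and DESeq2 called 2. In the line labelled KO-1, MET was higher, and PRNP, the prion protein gene, and L1CAM, an adhesion molecule, fell, with -1.35 and -1.32, where 7.01% of all genes were called. NOTCH1, NOTCH2, PRNP, L1CAM and NECTIN1 were the 5 called in the line labelled KO-2, all lower, where 6.67% of all genes were called lower. Their log2 differences there were -0.63, -0.64, -1.07, -0.88 and -0.76. Between the control lines these were -0.40, -0.63, -0.53, -0.70 and -0.42. In that comparison limma without the block and edgeR called 0 of the 15 substrates, and DESeq2 called 2, NOTCH2 and L1CAM. With the block 7 substrates were called in the line labelled KO-1, 4 higher and 3 lower, beside 24.4% of all genes. In the line labelled KO-2 it was 11, 1 higher and 10 lower, beside 27.4%. Between the control lines it was 6, 1 higher and 5 lower in control line 2, beside 12.5%. PRNP had 7194 and 10397 in control line 1, 5588 and 6451 in control line 2, 2576 and 3107 in the line labelled KO-1 and 2897 and 4059.6 in the line labelled KO-2, with no overlap of the arms. Among 12 tested genes of extracellular vesicles none was called between KO and control by limma or edgeR, 2 had an unadjusted p under 0.05 and DESeq2 called 2. SDCBP, the gene of syntenin, was higher by 1.00 and RAB27B by 0.92 in the line labelled KO-1, where 7.01% of all genes were called. SDC1, the syndecan that syntenin binds, fell by 1.29 in the line labelled KO-2, where 11.2% of all genes were called. With the block 4 vesicle genes were called in the line labelled KO-1 and 2 in the line labelled KO-2, beside 24.4% and 27.4% of all genes. Between the control lines 5 were called with the block, beside 12.5%. Of the 4 genes outside the rule with a tetraspanin fold, ROM1 alone passed the filter and was not called.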

How the data were processed

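Polyadenylated RNA of 8 A-498 cultures was sequenced, 2 replicates from each of 4 lines, grouped by sample title. The members and lists were chosen with earlier results of these data known. Per the submitters' processing notes, fastp 0.23.2, HISAT2 2.2.1, featureCounts 2.0.1 and DESeq2 2.11.40.8 were used with hg38 (GRCh38). Annotation and strand use are not given in the sources used here. The deposited values are a normalized signal: 100% of them were whole multiples of 1 read's worth (relative tolerance 1e-06), so whole reads were recovered, and the implied factors equalled DESeq2's size factors within 3.12e-10. Reads carry no molecular identifiers, so the floor of 3 reads covers counting error only. Entrez identifiers were matched to RefSeq symbols of GRCh38.p14 (27745 of 28395; the others held 0.0332% of reads). Exon lengths came from GENCODE.

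Tests ran in R 4.3.3 with limma 3.58.1 (eBayes with a trend), taking log2 after adding 1. The 14040 genes that reached 10 in 2 or more libraries were tested, adjusted by Benjamini-Hochberg at 0.05. KO against control used lines as a correlated block (correlation 0.33), and lines were compared with a mean per line. Whether replicates were separate cultures is not stated, so p-values measure the spread between these libraries. Genes were named by rule: TM4SF18, its family neighbours, every called member, then the CD-named ones. The rest were given by ranges, except TSPAN3, TSPAN15, TSPAN33, ITGA6 and PRNP, chosen after their values were seen. Replicate numbers in the titles paired the samples: differences between replicates 2 and 1 correlated across genes at 0.285 to 0.501 in all 6 pairs of lines (limit 0.1). Blocked results are therefore given where they change a call of a member, and as counts for neighbours and lists. Alternatives covered pseudocounts, filters, scaling, centring on neighbouring genes, each library left out, the block, edgeR 4.0.16 and DESeq2 1.42.0. Between KO and control, edgeR and DESeq2 took libraries of a line as independent. For alternatives other than the block no share of all genes is given, so counts under them have no reference. Scripts were tested on simulated data.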

Additional observations from a re-analysis of the deposited data

Results flagged for a closer look

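A direct limma test between the KO-labelled lines called 3 members. TSPAN8 was lower in the line labelled KO-2 than in the line labelled KO-1, with a fitted log2 difference of -3.62 that rests on 1 and 0 reads in the line labelled KO-2 (limma adjusted p = 0.014). TSPAN7 differed by -1.78 in the same direction (limma adjusted p = 0.00401), with 80.7 and 78.5 normalized read counts against 330 and 229. TSPAN10 was higher in the line labelled KO-2 by 1.02 (limma adjusted p = 0.036).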

How the results depend on the processing

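Each guide was represented by 1 line, 2 libraries per line bound the precision, and low members (TSPAN8, TSPAN11, CD37 and TM4SF18 in KO-labelled lines) rest on few reads. For alternatives other than the block, no share of all genes is given, so those counts have no reference. The counts of members called moved as follows. Between KO and control (1 by the method described) the count was 2 with centring on neighbouring genes, 4 with a separate mean for each line, 0 on line means, 2 with edgeR, 2 with DESeq2 and 0 to 1 when a library was left out. For the line labelled KO-1 (2) it was 8 with the replicate block, 5 with DESeq2 and 1 to 5 when a library was left out. For the line labelled KO-2 (5) it was 3 with a mean of at least 50, 9 with the block, 3 with DESeq2 and 3 to 4 when a library was left out. Between control lines (1) it was 0 without a filter, 7 with the block and 0 to 1 when a library was left out. Between KO-labelled lines (3) it was 8 with the block and 1 to 4 when a library was left out. With 7 libraries the exact permutation test of TM4SF18 cannot go below p = 0.0571, and its difference was -4.31 to -3.56. The block changed no call of TM4SF18, TSPAN9, TSPAN7, TSPAN8, TSPAN1 or TSPAN10 in the comparisons where they were called. In the line labelled KO-2 against control, neither edgeR nor DESeq2 called TSPAN8, and DESeq2 did not call TSPAN1. Between the KO-labelled lines DESeq2 did not call TSPAN8. Directions turned for small differences. TSPAN8 between KO and control was 0.00697 with pseudocount 10, 0.40 with edgeR, 0.33 with DESeq2 and -1.09 to 0.0397 when a library was left out. TM4SF1 in the line labelled KO-2 was 0.00917 with centring on neighbouring genes. CD63 between KO and control was -0.31 to 0.0341 when a library was left out. CD63 in the line labelled KO-2 was -0.42 to 0.41 when a library was left out, 0.0294 with edgeR and 0.0328 with DESeq2. TSPAN33 in the line labelled KO-1 was -0.0307 to 0.45 when a library was left out. Of the other values recomputed for single members, 696 kept their direction and side of the threshold, 39 lost and 16 gained a call. A value with no adjusted p was counted among the 696 where its direction held, so the 696 may include lost calls. The cause of the changes in counts, calls and directions was not tested, beyond fewer libraries or genes entering a fit.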
